A study of Mus musculus with 9 samples.

Results

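The collagen chains of the mouse liver were described by collagen class, from every gene of the deposited table whose symbol has the form of a collagen alpha chain (Col, a number, a and a number). This rule found 44 of the 21873 listed genes, of which 11 encode fibrillar chains, 6 basement membrane chains, 9 chains of fibril-associated collagens (FACIT) and 18 other chains. RNA was taken from the livers of 9 male C57BL/6 mice, 3 in each group. Control mice received normal saline and TAA mice received thioacetamide (TAA), a hepatotoxin, both by intraperitoneal injection for 8 weeks, and livers of both groups were collected after the final injection. Recovery mice received TAA for the same 8 weeks and then no injection for a further 8 weeks. They were therefore older than the control and the TAA mice at collection. Age and treatment history cannot be told apart when recovery and control mice are compared. Age and the time since the last injection cannot be told apart when recovery and TAA mice are compared. Each column of the table is 1 mouse and holds FPKM (fragments per kilobase of gene and M mapped fragments), a level per length that allows chains to be compared with each other.

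Collagens are extracellular proteins in which 3 alpha chains wind around each other through repeats of glycine and other residues, many of them proline or hydroxyproline. Fibrillar collagens such as types I, III and V form the banded fibers of scar tissue, and FACIT collagens sit on the surface of these fibers. Type IV collagen forms the sheet-like network of basement membranes, type VI forms beaded filaments around cells, and types XV and XVIII (multiplexins) carry long glycosaminoglycan-bearing ends. In the injured liver, activated hepatic stellate cells and portal fibroblasts are known as the main sources of fibrillar collagen, and the normal sinusoid lacks a continuous basement membrane.

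The 250 bases before the transcription start are shown for both chains that fell in the TAA group, Col5a3 and Col18a1, and for 2 of the 24 that rose, Col5a1 as a partner chain of Col5a3 and Col3a1 as the chain with the highest mean in that group. They are on the strand of the gene, 5′ to 3′, from RefSeq on GRCm38.p6, and capitals mark a CCAAT box or a TATAAA box on either strand (CCAAT reads ATTGG on the other strand). The windows are chr1:45311288-45311537 (plus strand) for Col3a1, chr2:27886175-27886424 (plus strand) for Col5a1, chr9:20815068-20815317 (minus strand) for Col5a3 and chr10:77166531-77166780 (minus strand) for the upstream start of Col18a1.
Col3a1: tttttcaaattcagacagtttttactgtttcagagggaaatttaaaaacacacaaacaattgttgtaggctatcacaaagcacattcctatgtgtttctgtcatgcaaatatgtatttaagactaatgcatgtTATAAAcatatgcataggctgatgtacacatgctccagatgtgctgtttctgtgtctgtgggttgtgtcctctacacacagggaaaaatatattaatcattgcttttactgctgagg
Col5a1: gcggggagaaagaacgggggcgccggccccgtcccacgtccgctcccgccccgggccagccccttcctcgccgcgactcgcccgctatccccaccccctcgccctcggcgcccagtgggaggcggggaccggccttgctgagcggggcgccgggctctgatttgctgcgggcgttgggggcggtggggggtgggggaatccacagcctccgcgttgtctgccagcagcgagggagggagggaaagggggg
Col5a3: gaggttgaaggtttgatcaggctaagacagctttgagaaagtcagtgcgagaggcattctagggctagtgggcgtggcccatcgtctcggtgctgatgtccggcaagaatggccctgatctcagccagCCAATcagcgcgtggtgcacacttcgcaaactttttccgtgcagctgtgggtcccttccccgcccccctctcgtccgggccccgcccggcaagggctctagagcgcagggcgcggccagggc
Col18a1: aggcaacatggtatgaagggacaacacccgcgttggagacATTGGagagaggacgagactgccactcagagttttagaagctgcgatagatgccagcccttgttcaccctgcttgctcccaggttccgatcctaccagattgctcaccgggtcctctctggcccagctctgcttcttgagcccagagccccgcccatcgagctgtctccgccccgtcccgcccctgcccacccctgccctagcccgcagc
The Col3a1 window holds a TATAAA that begins at position -117, where -1 is the last base before the start, and its GC content is 35.2%. The Col5a1 window has a GC content of 76.4% and holds neither a CCAAT nor a TATAAA. In Col5a3 a CCAAT begins at -122, and in Col18a1 one begins at -210 on the other strand. GC boxes (GGGCGG on either strand, not in capitals) are at -205 and -73 in Col5a1, at -63 and -41 in Col5a3 and at -61, -43 and -33 in Col18a1. The last 18 bases of the Col18a1 window lie within the listed Col18a1 locus. RefSeq gives Col18a1 a further, downstream start, whose window holds none of these motifs, and a level per gene cannot be assigned to either start. Windows of chains that rose hold such motifs too. A CCAAT was found in 6 of their 19 windows, with Col1a2, Col4a1 and Col4a2 among them, and a GC box in 12.

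RefSeq promoter windows were matched for 35 of the 44 chains, in 38 windows. A CCAAT was found on either strand in 13 of the 38 windows (34.2%, against 33.8% of 32851 windows of all genes) and a TATAAA in 5 (13.2%, against 12.4%). CAGAC, the core of many Smad-binding elements, was found in 17 (44.7%, against 42.2%). GGGCGG was found in 22 windows (57.9%, against 32.7%), and the median GC content was 59% against 52.4%. These matches are letters in a window and were not tested as sites.

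Each library's FPKM were brought to a common scale by a median-of-ratios factor (scaled FPKM), and limma compared the groups on log2(scaled FPKM + 0.1). Genes had to reach a mean of 0.1 FPKM over the 9 libraries, which 14094 did. A chain was called a differentially expressed gene (DEG) at a Benjamini-Hochberg adjusted p < 0.05 over all tested genes and a fold change of at least 2, and it is said to rise or fall only then. Steps between low values put the depth at 26.8 to 40.8 M fragments per library. Before the pseudocount, the scaling shifted log2 differences between the TAA and control groups by 0.64, so directions within that size depend on it. Albumin (Alb), the main hepatocyte product, was at 17378 to 36663 scaled FPKM in every library. Skeletal muscle markers summed to 42.5 in TAA 3 and to at most 0.489 in the other libraries, and values without TAA 3 are given beside the counts below.

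Against the control group, 24 of the 33 tested chains rose in the TAA group (72.7%, where 17.0% of all tested genes rose) and 2 fell (6.06%, against 8.02%). All 6 basement membrane chains, 5 of 8 tested fibrillar chains, 4 of 6 tested FACIT chains and 9 of 13 tested other chains rose, and Col5a3 and Col18a1 fell. Without TAA 3, 22 chains rose and 2 fell. Of the 33 tested chains, 6 had a mean under 0.1 scaled FPKM in both the control and the recovery group and passed the filter through the TAA group (Col11a2, Col4a6, Col9a3, Col7a1, Col8a2 and Col28a1). Of these, 5 rose, and 19 of the other 27 did. The median log2 fold change was 3.21 for the tested fibrillar chains, 2.23 for basement membrane chains, 1.13 for FACIT chains and 1.56 for other chains, beside 0.02 for all tested genes. In whole liver RNA, more cells of a collagen-producing type and more RNA per cell cannot be told apart.

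**Figure D1:**
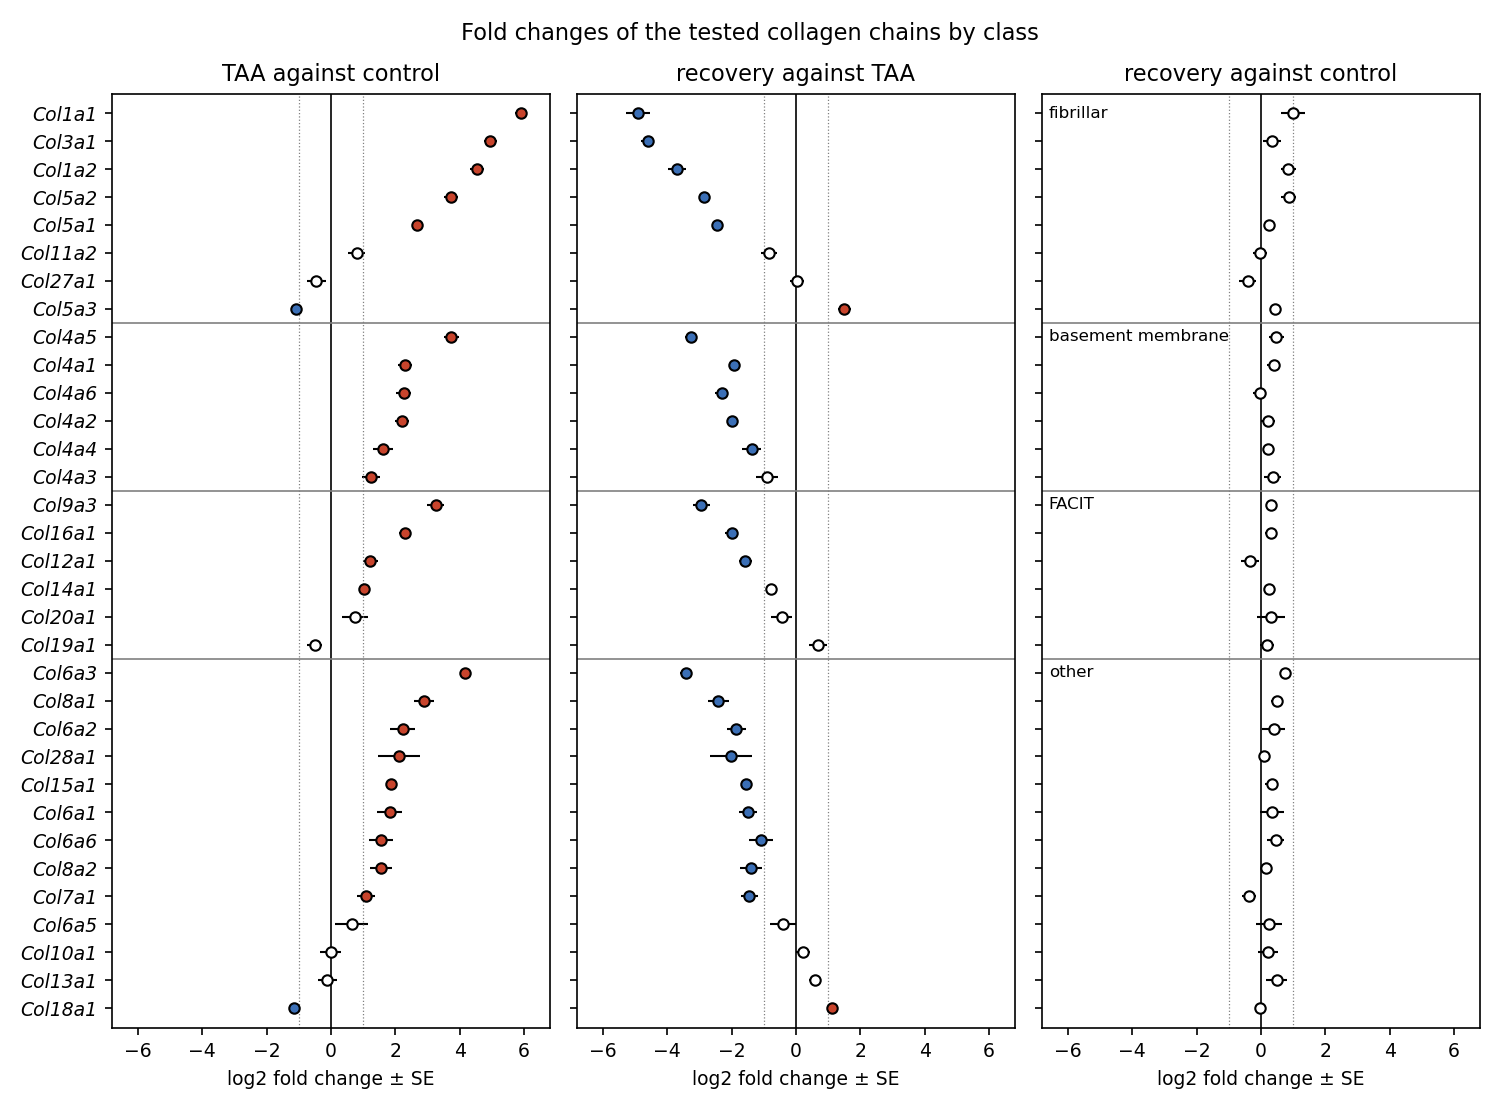
Log2 fold change ± standard error (limma, n = 3 mice per group) of the 33 tested collagen chains, ordered within class by the TAA against control value. Filled points are DEGs (red higher, blue lower), open points are not, and dotted lines mark a fold change of 2; 24 chains lie to the right of it as DEGs in the first panel, and none is a DEG in the third.

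The fibrillar chains of types I and III carried the largest changes. Col1a1, the alpha-1 chain of type I collagen (chromosome 11, 94936224 to 94953042, mm10), was at 1.04, 1.01 and 0.995 scaled FPKM in the control libraries and at 77.2, 49.3 and 78.2 in the TAA libraries. In the recovery libraries it was at 1.16, 2.2 and 3.6. The TAA group stood far above both other groups with no overlap, and recovery 1 lay close to the control range. Col1a1 rose by 5.91 ± 0.18 (SE) on the log2 scale in the TAA group (60-fold, adjusted p = 1.65e-06). From the TAA to the recovery group it fell by 4.92 ± 0.37 (adjusted p = 4.22e-05).

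Col3a1, the chain of type III collagen (chromosome 1, 45311538 to 45349706), was at 3.94, 3.12 and 2.29 in the control group, 108, 82.1 and 103 in the TAA group and 2.87, 3.99 and 5.1 in the recovery group. Control and recovery values overlapped, and the TAA values were apart from both. It rose by 4.95 ± 0.20 (30.9-fold, adjusted p = 3.94e-06) and fell by 4.61 ± 0.20 in recovery (adjusted p = 5.91e-06). Col1a2, the alpha-2 chain of type I collagen (chromosome 6, 4504814 to 4541544), was at 2.04, 2.53 and 2.16, then 67.7, 37.2 and 62.8, then 2.89, 4.34 and 5.48 in the same order of groups. Every recovery value was above every control value and under every TAA value. Its log2 fold changes were 4.54 ± 0.22 (23.3-fold, adjusted p = 8.17e-06) and -3.69 ± 0.28 (adjusted p = 4.7e-05).

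Type V collagen joins the type I fibers and limits their width, and its chains parted in direction. Col5a2 (chromosome 1, 45374321 to 45503282, tail to tail with Col3a1 at a distance of 24614 bases) had 0.772, 0.407 and 0.563 in the control group, 9.49, 7.54 and 9.2 in the TAA group and 0.986, 1.04 and 1.31 in the recovery group. Col5a1 (chromosome 2, 27886425 to 28039514) had 0.993, 0.971 and 0.938, then 7.23, 5.57 and 7.64, then 1.03, 1.22 and 1.27. Both were high in all TAA libraries and rose, Col5a2 by 3.73 ± 0.21 (13.2-fold, adjusted p = 1.43e-05) and Col5a1 by 2.68 ± 0.15 (6.42-fold, adjusted p = 1.31e-05).

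Col5a3 (chromosome 9, 20770050 to 20815067), a less widely expressed type V chain, went the other way. Its values were 2.2, 2.03 and 2.17 in the control group, 1.08, 0.739 and 1.12 in the TAA group and 3.27, 2.96 and 2.6 in the recovery group. The 3 groups did not overlap, and the TAA group was the lowest. It fell by 1.07 ± 0.18 in the TAA group (2.1-fold, adjusted p = 0.00189) and rose by 1.51 ± 0.19 in recovery against the TAA group (adjusted p = 0.000413). The size of the fall moved with the scaling. Col5a3 was no longer a DEG with FPKM as deposited (log2 fold change -0.48, adjusted p = 0.055) or with libraries set to an equal total FPKM (-0.30, adjusted p = 0.186), while quantile normalization gave a larger fall (-1.64, adjusted p = 0.000284). Without TAA 2 the difference was -0.90 with an adjusted p of 0.00357 by limma, so that only the fold change of 2 was missed.

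The other tested fibrillar chains were not DEGs. Col27a1, whose product forms thin fibers in cartilage, was at 2.86, 1.41 and 1.99, then 1.84, 1.07 and 1.51, then 1.73, 1.34 and 1.41, with all groups overlapping and a log2 fold change of -0.45 in the TAA group (95% interval -1.12 to 0.22). Col11a2 was at 0.0181, 0.0855 and 0.0547 in the control group, 0.168, 0.187 and 0.132 in the TAA group and 0.0257, 0.0631 and 0.0548 in the recovery group. Its TAA values were all above the control values, but its log2 fold change of 0.80 (adjusted p = 0.0357) was under the fold change of 2. With FPKM as deposited (1.13) or an equal total FPKM (1.24) Col11a2 was a DEG. Together with Col20a1, Col11a2 was the chain nearest below that limit. Col11a1 and Col24a1 did not pass the filter, with at most 0.00473 and 0.113 scaled FPKM in any library, and Col2a1, the main collagen of cartilage, was listed at 0 in all 9 libraries.

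**Figure D2:**
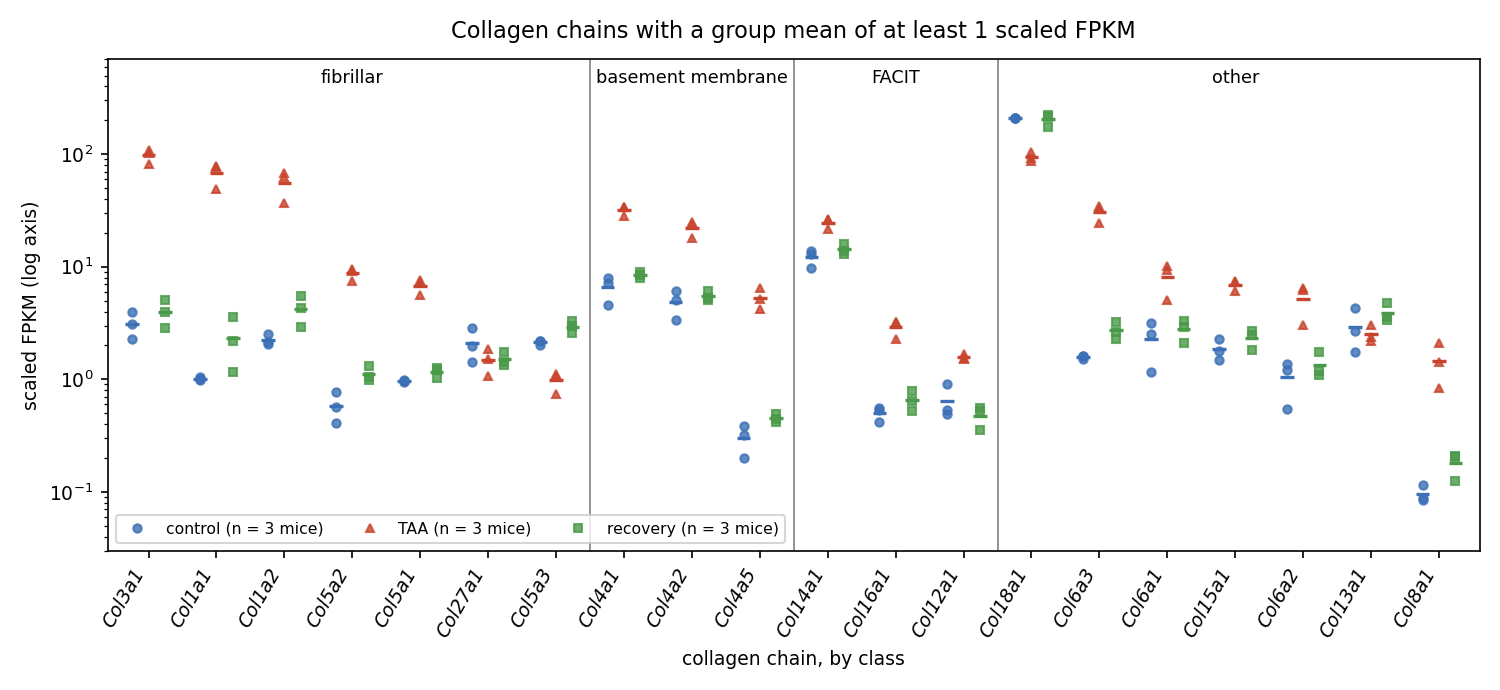
Scaled FPKM (log axis) of the 20 chains with a mean of at least 1 in any group, with 1 point per mouse and the group mean as a line. The TAA points of Col1a1, Col1a2 and Col3a1 sit between 37.2 and 108, above all control and recovery points of these chains, and Col18a1 and Col5a3 have their lowest points in the TAA group.

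All 6 chains of type IV collagen rose in the TAA group. Col4a1 and Col4a2, which together form the common basement membrane network, lie head to head on chromosome 8 (11198423 to 11312826 and 11312805 to 11449287), and their annotated starts overlap by 22 bases. Col4a1 was at 4.53, 7.94 and 7.19 in the control group, 34.1, 28.3 and 34 in the TAA group and 7.89, 8.44 and 8.95 in the recovery group. Col4a2 was at 3.39, 6.09 and 5.02, then 25.1, 18.1 and 23.8, then 5.06, 5.29 and 6.09. In both, control 1 was the lowest library and control and recovery values overlapped. Col4a1 rose by 2.31 ± 0.21 (4.96-fold, adjusted p = 8.71e-05) and Col4a2 by 2.21 ± 0.22 (4.63-fold, adjusted p = 0.000152).

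The minor type IV chains are known from specialized basement membranes such as those of the kidney. Col4a5 (chromosome X, 141475385 to 141689234) had the largest difference of the class, with 0.383, 0.201 and 0.317 in the control group, 6.43, 4.24 and 5.13 in the TAA group and 0.414, 0.443 and 0.49 in the recovery group. It rose by 3.75 ± 0.23 (13.5-fold, adjusted p = 1.98e-05), and the TAA libraries were far apart from the rest. Col4a6, which lies head to head with Col4a5 at a distance of 1308 bases, rose by 2.26 (adjusted p = 0.000143). Col4a3 and Col4a4, which lie head to head 71 bases apart on chromosome 1, rose by 1.26 (adjusted p = 0.00668) and 1.61 (adjusted p = 0.00355). All 3 were low, between 0.0665 and 0.861 scaled FPKM in any library.

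In recovery, 5 of the 6 chains fell against the TAA group. The log2 fold changes were -3.27 for Col4a5, -2.30 for Col4a6, -2.00 for Col4a2, -1.92 for Col4a1 and -1.38 for Col4a4, with adjusted p between 1.26e-05 and 0.00735. Col4a3 had a log2 fold change of -0.90 (adjusted p = 0.0505) and was not a DEG. Recovery 2 had the highest Col4a3 level of its group, 0.322, close to the 0.334 of TAA 2, and without either of these libraries Col4a3 was a DEG, as it was with FPKM as deposited (-1.34) or an equal total FPKM (-1.50).

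Of the FACIT chains, Col14a1 was the most abundant in every library. Its product binds the surface of type I fibers (chromosome 15, 55307750 to 55520803). Col14a1 was at 9.65, 12.9 and 13.7 scaled FPKM in the control group, 25.8, 21.5 and 26.5 in the TAA group and 13.1, 15.9 and 13.9 in the recovery group. It rose by 1.03 ± 0.15 (2.04-fold, adjusted p = 0.00103), which is the smallest rise among the DEGs, and fell short of a fold change of 2 without control 1 (0.87), TAA 1 (0.99) or TAA 3 (0.97). In recovery against the TAA group its log2 fold change was -0.78 (adjusted p = 0.00113), under the limit. Under each of the other scalings Col14a1 was a DEG here, with -1.34 for FPKM as deposited, -1.06 for quantile normalization and -1.54 for an equal total FPKM, and its rise in the TAA group was then 1.66, 1.33 and 1.85.

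Col16a1, a minor FACIT chain, was at 0.417, 0.529 and 0.555, then 3.22, 2.28 and 3.2, then 0.794, 0.521 and 0.636 and rose by 2.31 ± 0.19 (4.96-fold, adjusted p = 6.67e-05). Col12a1, whose product also decorates type I fibers, was at 0.535, 0.9 and 0.491, then 1.69, 1.56 and 1.53, then 0.351, 0.518 and 0.559. It rose by 1.23 ± 0.23 (2.34-fold, adjusted p = 0.00279). Both chains overlapped between control and recovery. Col9a3, a chain of the cartilage-associated type IX collagen, was nearly absent from control and recovery libraries (0 to 0.0456) and was at 0.697 to 1.29 in the TAA libraries. It rose by 3.26 ± 0.26 on the scale with 0.1 added (adjusted p = 5.3e-05), a scale that understates changes from such low levels. Tcfl5, which overlaps the end of Col9a3 by 234 bases on the other strand, had a mean of at most 0.0192 in any group.

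The 3 FACIT DEGs of both comparisons, Col9a3, Col16a1 and Col12a1, fell in recovery, with log2 fold changes of -2.94, -2.00 and -1.57 (adjusted p = 8.21e-05, 0.000172 and 0.000395). Col20a1 had 0.0212, 0.0202 and 0.202, then 0.126, 0.252 and 0.163, then 0.128, 0.167 and 0.0378, with all groups overlapping and a log2 fold change of 0.75 in the TAA group (95% interval -0.21 to 1.71). It was a DEG without control 3 (1.19), with FPKM as deposited (1.09) and with an equal total FPKM (1.21). Col19a1 was at 0.324, 0.241 and 0.279 in the control group, 0.157, 0.241 and 0.122 in the TAA group and 0.229, 0.392 and 0.406 in the recovery group. Its TAA values lay under the control values, TAA 2 and control 2 differing only beyond the digits shown, and TAA and recovery overlapped. The log2 fold change of Col19a1 in the TAA group was -0.50 (95% interval -1.07 to 0.07), which was -1.42 with quantile normalization (adjusted p = 0.00389, a DEG) and 0.06 with an equal total FPKM. Col9a2, a partner of Col9a3 in type IX collagen, did not pass the filter, and its control and recovery values were all listed at 0, with 0.137, 0.0293 and 0.0992 in the TAA libraries. The other type IX chain, Col9a1, was at most at 0.0118, and Col22a1 at most at 0.0167. Of the cartilage marker list, Acan, Matn1 and Matn3 were at 0 in the control and recovery libraries and at most at 0.0196 in the TAA libraries, while Sox9, which is also on the cholangiocyte list, was at 5.06 to 7.02 in the TAA libraries.

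Among the other chains, type VI collagen is built from Col6a1, Col6a2 and either Col6a3 or a related chain. Col6a3 (chromosome 1, 90765923 to 90843971) was at 1.62, 1.61 and 1.52 in the control group, 34.6, 24.5 and 32.4 in the TAA group and 2.29, 2.65 and 3.26 in the recovery group. The 3 groups did not overlap, and recovery lay between control and TAA. It rose by 4.17 ± 0.14 (18-fold, adjusted p = 2.33e-06) and fell by 3.43 ± 0.17 in recovery (adjusted p = 9.24e-06).

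Its partner Col6a1 (chromosome 10, 76708792 to 76726168) was at 1.17, 3.19 and 2.55, then 9.35, 5.1 and 10.1, then 2.11, 3.32 and 2.94. Col6a2 (chromosome 10, 76595762 to 76623630) was at 0.549, 1.38 and 1.2, then 6.19, 3.06 and 6.41, then 1.09, 1.18 and 1.73. In both, TAA 2 was the lowest TAA library and control 1 the lowest control library, and control and recovery overlapped. Col6a1 rose by 1.83 ± 0.39 (3.57-fold, adjusted p = 0.00564) and Col6a2 by 2.23 ± 0.38 (4.7-fold, adjusted p = 0.00207). Of the related chains, Col6a6 rose by 1.56 (adjusted p = 0.00799) and Col6a5 had 0.65 (95% interval -0.54 to 1.84). The fall of Col6a6 in recovery (-1.09, adjusted p = 0.0432) was a DEG call although its TAA and recovery values overlapped. This call was lost in 8 alternatives, among them no filter, quantile normalization (-0.35, adjusted p = 0.454) and leaving out TAA 1, TAA 3, recovery 1 or recovery 2, and leaving out 1 mouse gave -1.48 to -0.84 with adjusted p up to 0.137. The rise of Col6a6 was lost with quantile normalization (0.61, adjusted p = 0.167).

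Type VIII collagen forms hexagonal networks, chiefly in vessel walls. Col8a1 (chromosome 16, 57624258 to 57754737) was at 0.0882, 0.114 and 0.0851, then 2.11, 0.833 and 1.41, then 0.124, 0.204 and 0.208. It was highest in every TAA library and rose by 2.90 ± 0.32 (7.49-fold, adjusted p = 0.000227), and its partner Col8a2 rose by 1.55 (adjusted p = 0.0065). Col10a1, the network collagen of growth-plate cartilage, was at 0.132 to 0.412 scaled FPKM over all libraries with a log2 fold change of -0.01 (95% interval -0.77 to 0.75). The listed Col10a1 locus overlaps Nt5dc1 on the other strand over 114971 bases, and Nt5dc1 was at 9.72 in the control, 7.3 in the TAA and 9.35 in the recovery group. In the GENCODE M21 annotation these genes share 18 exon bases, of 3130 for Col10a1, but its Col10a1 locus differs from the listed one. Whether strand was used in counting is not given in the sources used here, so reads of these genes may not be separable.

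The multiplexins parted in direction. Col15a1 (chromosome 4, 47208161 to 47313167) was at 1.49, 2.28 and 1.77 in the control group, 7.33, 6.08 and 7.44 in the TAA group and 2.5, 1.83 and 2.68 in the recovery group and rose by 1.87 ± 0.17 (3.66-fold, adjusted p = 0.000107). Col18a1, whose carboxyl end holds the endostatin fragment (chromosome 10, 77052178 to 77166548), was at 208, 208 and 209, then 104, 86.3 and 92.4, then 225, 215 and 175. It was the highest of all 44 chains in every control and recovery library, and its TAA libraries lay under all others.

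Col18a1 fell by 1.15 ± 0.09 in the TAA group (2.21-fold, adjusted p = 6.38e-05) and rose by 1.12 ± 0.13 in recovery (adjusted p = 0.000262). The direction was the same but under a fold change of 2 with FPKM as deposited (-0.51 in the TAA group, adjusted p = 0.00146), with quantile normalization (-0.34) and with an equal total FPKM (-0.32). Albumin and 4 other hepatocyte markers summed to 21495 to 28528 scaled FPKM in the TAA libraries, 36632 to 40678 in the control libraries and 45698 to 48611 in the recovery libraries. On the scaled values they were, like Col18a1, lowest in the TAA group. Their order without the scaling is not given here, and their part in the Col18a1 values was not tested. The Col18a1 locus overlaps Slc19a1 on the other strand over 63540 bases with 0 shared exon bases.

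The remaining chains were low. Col7a1, which forms anchoring fibrils under epithelia, was at 0.0117 to 0.0778 in control and 0.163 to 0.257 in TAA libraries and rose by 1.08 (adjusted p = 0.0127), a call lost without control 2 (0.91) or TAA 1 (0.94) and with quantile normalization, where Col7a1 had 0.09 (adjusted p = 0.814). Col28a1 had 1.07, 0.0521 and 0.398 in the TAA libraries and at most 0.0131 in any other library. Its rise of 2.12 (adjusted p = 0.0279) was no longer a DEG call in 9 of the alternatives, among them leaving out TAA 1 (1.42, adjusted p = 0.0598). The only tested transmembrane chain, Col13a1, was at 1.75, 4.29 and 2.68, then 2.39, 2.21 and 3.04, then 4.77, 3.34 and 3.61, with a log2 fold change of -0.11 in the TAA group (95% interval -0.81 to 0.60). Col17a1, Col23a1, Col25a1 and Col6a4 did not pass the filter and reached at most 0.0395, 0.147, 0.09 and 0.00926, and Col26a1 was listed at 0 in all 9 libraries.

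The comparison of recovery with TAA mice asks how livers differed after injections had ended. Recovery mice were also older than TAA mice, and age cannot be told apart from the time since the last injection. Here 22 of the 33 tested chains fell (14.3% of all tested genes fell) and 2 rose, Col18a1 and Col5a3 (7.12% of all tested genes rose). The falls were in 5 of 8 fibrillar, 5 of 6 basement membrane, 3 of 6 FACIT and 9 of 13 other chains. Of the 6 chains that passed the filter through the TAA group, 5 fell, and 17 of the other 27 did. The TAA mice are the same in this comparison and in that with the control group, so the opposite signs are not independent of each other. Without TAA 3, 20 chains fell and 2 rose. The medians were -2.65, -1.96, -1.18 and -1.45 for the classes in the same order, beside -0.01 for all tested genes. Of the fibrillar chains not given above, Col5a2 and Col5a1 fell, with log2 fold changes of -2.87 and -2.44 (adjusted p = 1.18e-05 and 2.38e-05). Of the other chains, the log2 fold changes were -2.41 for Col8a1, -2.03 for Col28a1, -1.85 for Col6a2, -1.54 for Col15a1, -1.48 for Col6a1, -1.45 for Col7a1 and -1.40 for Col8a2, with adjusted p between 0.000216 and 0.0325. The fall of Col28a1 was lost in 9 alternatives, among them leaving out any recovery mouse, TAA 1 or TAA 3, and leaving out 1 mouse gave -2.81 to -1.34 with adjusted p up to 0.0942. That of Col7a1 was lost with quantile normalization (-0.63, adjusted p = 0.0803).

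The summed level of all 44 chains was 249, 263 and 259 scaled FPKM in the control libraries, 543, 392 and 517 in the TAA libraries and 281, 278 and 243 in the recovery libraries. Without Col18a1 the sums were 41, 54.2 and 50.2, then 439, 305 and 425, then 56, 63 and 67.7. The sum without Col18a1 was therefore higher in every recovery library than in any control library, while the sum with Col18a1 overlapped. As a share of the library's total FPKM, which does not depend on the scaling, the chains without Col18a1 took 0.00939% to 0.012% in the control, 0.122% to 0.179% in the TAA and 0.0134% to 0.0159% in the recovery group. These sums over chosen genes are given as values, with no test.

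The make-up of the collagen transcripts differed between the groups. Col18a1 took 79.4% to 83.5% of the summed collagen FPKM in the control libraries, 17.9% to 22% in the TAA libraries and 72.1% to 80.1% in the recovery libraries. Of the sum without Col18a1, fibrillar chains took 21.4% to 34% in the control, 60.2% to 62.2% in the TAA and 24.9% to 30.8% in the recovery group. FACIT chains went the other way, with 26.8% to 30.5%, 7.4% to 8.69% and 23.1% to 27.8%. Col14a1 alone was 23.6% to 27.4% of this sum in the control group and 5.88% to 7.03% in the TAA group, so its level rose while its share was lower. Basement membrane chains took 21.1% to 26.9%, 15.3% to 17% and 23.4% to 24.6%, and type VI chains took 8.4% to 11.9%, 10.8% to 11.8% and 10.4% to 12.4%, with all 3 groups overlapping.

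**Figure D3:**
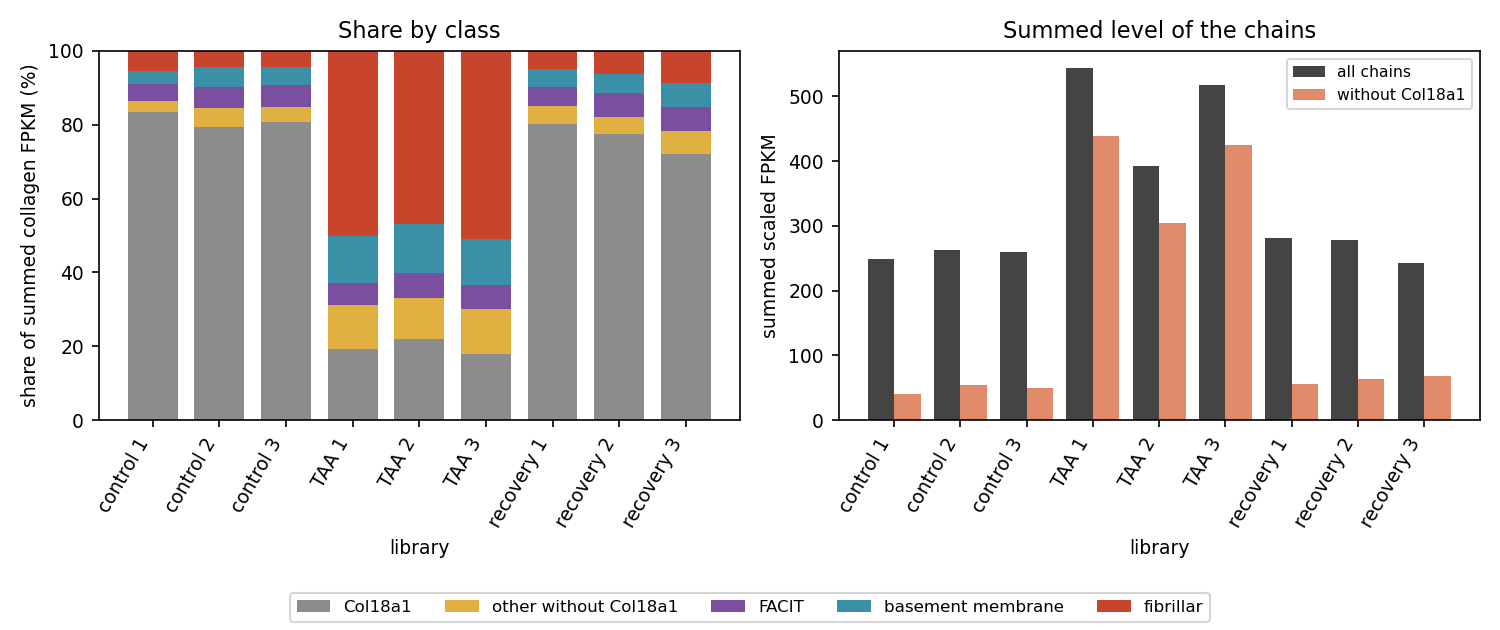
Left, share of the summed collagen FPKM (%) by class in each of the 9 libraries, with Col18a1 drawn apart from the other chains of its class. Right, summed scaled FPKM of all 44 chains and of the chains without Col18a1. Col18a1 fills 79.4% to 83.5% of the control bars and 17.9% to 22% of the TAA bars, and the sum without Col18a1 is 305 to 439 in the TAA libraries and at most 67.7 elsewhere.

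The order of the chains by mean level followed these shares. In the control group it was Col18a1 (208), Col14a1 (12.1), Col4a1 (6.56), Col4a2 (4.83) and Col3a1 (3.12), where the range of Col4a2 (3.39 to 6.09) overlapped those of Col4a1 (4.53 to 7.94) and Col3a1 (2.29 to 3.94). In the TAA group it was Col3a1 (97.7), Col18a1 (94.4), Col1a1 (68.2), Col1a2 (55.9) and Col4a1 (32.2), where the ranges of Col3a1 (82.1 to 108) and Col18a1 (86.3 to 104) overlapped and so did those of Col1a1 and Col1a2. In the recovery group it was Col18a1 (205), Col14a1 (14.3), Col4a1 (8.43), Col4a2 (5.48) and Col1a2 (4.24), where Col1a2 (2.89 to 5.48) and Col4a2 (5.06 to 6.09) overlapped.

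Ratios of chains within a library are free of the scaling between libraries, and 11 ratios were compared in the 3 comparisons, 33 tests in all. With 3 mice against 3 the smallest p of the exact two-sided permutation test is 0.1, and no ratio could pass the threshold (lowest adjusted p = 0.165). Type I collagen is usually assembled from a pair of Col1a1 chains with a Col1a2 chain. The ratio of Col1a1 to Col1a2 FPKM was 0.511, 0.398 and 0.462 in the control group, 1.14, 1.32 and 1.24 in the TAA group and 0.403, 0.508 and 0.657 in the recovery group. Every TAA library was above 1 and every other library below it (exact permutation p = 0.1).

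Col6a3 to Col6a1 was 3.21 to 4.82 in TAA libraries, against 0.506 to 1.39 in control and 0.799 to 1.11 in recovery libraries. Col5a3 to Col5a2 was 0.098 to 0.121 in TAA, 2.85 to 5 in control and 1.98 to 3.32 in recovery libraries, and Col18a1 to Col15a1 was 12.4 to 14.2, 91.2 to 140 and 65.4 to 117 in the same order. In these ratios the TAA group was apart from both other groups (exact permutation p = 0.1). Col4a1 to Col4a2 stayed within 1.31 to 1.59 over all 9 libraries. For Col4a1 to Col4a2 the control and TAA ranges overlapped (exact permutation p = 0.2), and the recovery values were all above the control values (1.47 to 1.59 against 1.31 to 1.43, exact permutation p = 0.1). Col5a1 to Col5a2 was 1.29 to 2.38, 0.738 to 0.83 and 0.964 to 1.17 in the 3 groups, which did not overlap.

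**Figure D4:**
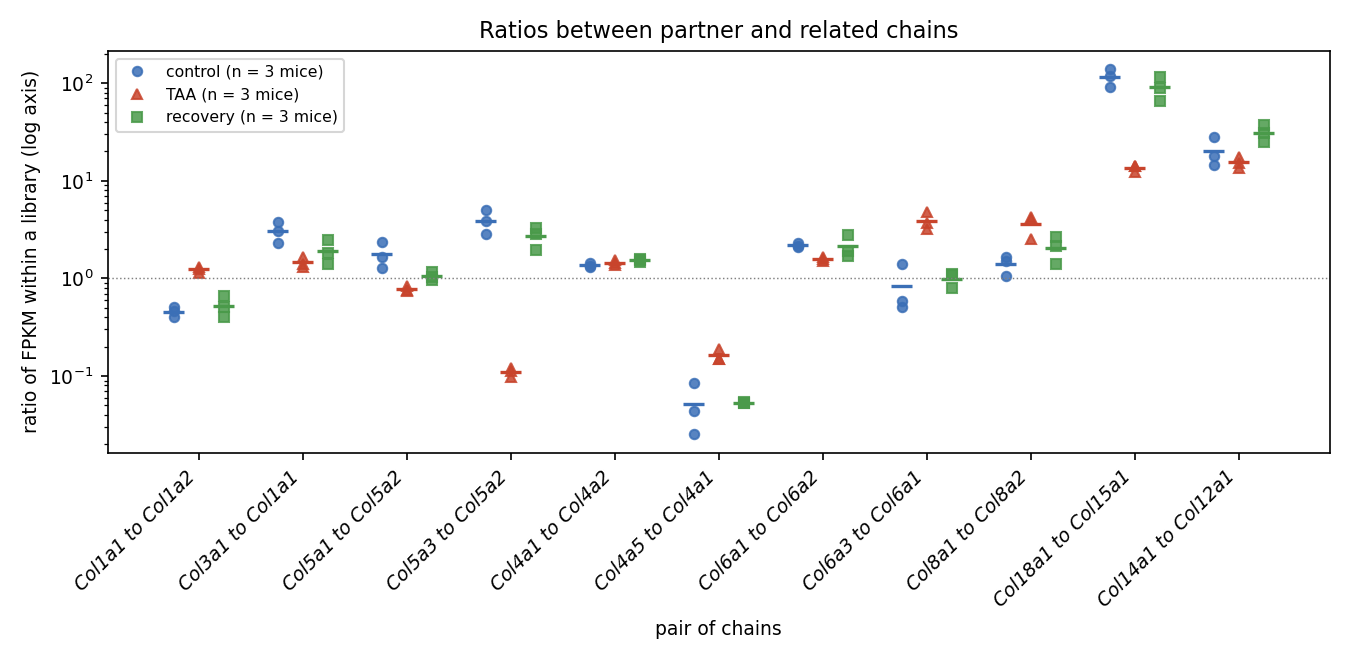
Ratio of FPKM (log axis) between 11 pairs of partner or related chains, with 1 point per mouse and the group mean as a line, and the dotted line at 1. The TAA points of Col1a1 to Col1a2 lie between 1.14 and 1.32 and all other points of this pair between 0.398 and 0.657, while Col4a1 to Col4a2 stays between 1.31 and 1.59 in all groups.

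Between the recovery and control groups, limma called 0 of the 33 tested chains higher and 0 lower, where 0.582% of all tested genes were higher and 0.412% lower. At an unadjusted p < 0.05, 6 chains were higher (11.3% of all tested genes were) and 0 lower (11.7% were). In 10 chains every recovery value was above every control value (30.3%, against 14.6% of all tested genes), and 0 chains had all recovery values below (15.6% of all tested genes did). These 10 were Col1a1, Col1a2, Col5a1, Col5a2, Col5a3, Col4a4, Col4a5, Col6a3, Col8a1 and Col9a3. The median log2 fold change was 0.39 for fibrillar, 0.30 for basement membrane, 0.28 for FACIT and 0.33 for other chains, beside 0.01 for all tested genes.

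The largest differences between recovery and control were 0.99 ± 0.37 for Col1a1 (95% interval 0.10 to 1.87, adjusted p = 0.179), 0.86 for Col5a2 (0.29 to 1.43, adjusted p = 0.105) and 0.85 for Col1a2 (0.28 to 1.42, adjusted p = 0.108). The lowest adjusted p was that of Col6a3, with a difference of 0.74 (0.36 to 1.12, adjusted p = 0.0638). The adjusted p of Col6a3 lay between 0.0298 and 1 over the alternatives, and the fold change was under 2 in all of them. The recovery libraries differed among themselves: for the 24 chains that rose in the TAA group, recovery 1 was the lowest of its group in 15 and recovery 3 the highest in 16, where over all tested genes these shares were 36.6% and 32.8%. For Col18a1 the interval was -0.28 to 0.22, and for Col14a1 it was -0.11 to 0.61.

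The TAA libraries also differed. TAA 2 was the lowest of its group in 22 of the 24 chains that rose, and in 38.4% of all tested genes. The summed markers of activated stellate cells or smooth muscle (Acta2, Tagln, Cnn1 and Myh11) were 12.8, 9.97 and 16.2 in the TAA libraries, those of portal fibroblasts (6 genes) 19.8, 13.5 and 18.9, and those of hepatic stellate cells (8 genes) 101, 91 and 104, with TAA 2 the lowest in each. In the control group these sums were 2.55 to 4.95, 3.1 to 3.58 and 56.3 to 90.7, and in the recovery group 1.83 to 5.39, 3.91 to 5.94 and 72.3 to 82.8. The TAA sums were above both other groups in all 3 lists, for hepatic stellate cells by 91 in TAA 2 against 90.7 in control 3. Not all members moved with the sums. Of the 8 hepatic stellate cell markers 5 rose in the TAA group and 1 fell, Ecm1 (-1.03, adjusted p = 0.0107), and Colec11 had -0.04. The fall of Ecm1 is near the fold change of 2, and the scaling shift of 0.64 enters its size. Of the 4 activated stellate cell or smooth muscle markers 2 rose (Acta2 and Tagln), with -0.09 for Cnn1 and 0.26 for Myh11. All 5 tested portal fibroblast markers rose. Among all tested genes 17.0% rose and 8.02% fell. Within the portal fibroblast sums, Cd34 alone was at 10.1, 6.55 and 8.47 in the TAA libraries and at 0.519, 0.559 and 0.712 in the control libraries. Cnn1 and Gli1 were at 0 in some control or recovery libraries.

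Markers of other cell types also moved with the TAA group. The 5 cholangiocyte markers, mostly Spp1, summed to 15.7 to 20.9 in the control, 295 to 442 in the TAA and 27.9 to 38.4 in the recovery group. Of these markers, limma called Epcam higher in recovery than in control (1.65, adjusted p = 0.031). The 5 mesothelial markers summed to 1.2 to 1.84, 2.43 to 5.86 and 0.966 to 2.63, where TAA and recovery overlapped and Msln and Upk1b were at 0 in recovery 1. Sinusoidal endothelial markers (50.1 to 95, 56.7 to 71.4 and 83.2 to 97.6) overlapped between control and TAA, and so did Kupffer cell or macrophage markers (45.3 to 115, 89.7 to 96.7 and 129 to 162). Both overlaps rested on control 1 (50.1 and 45.3). On the scaled values, control 2 and control 3 lay above every TAA library in both lists, with 95 and 78.1, then 110 and 115. The scaling shift of 0.64 between these groups enters both the overlaps and this order, so they depend on the scaling. The part of these cell types in the collagen values was not tested.

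Genes that make, process, bind and degrade collagen were read beside the chains, 60 of 64 listed genes being tested. In the TAA group 31 rose (51.7%, where 17.0% of all tested genes rose) and 1 fell (1.67%, against 8.02%). In recovery against the TAA group 26 fell (43.3%, against 14.3%) and 0 rose by limma (7.12% of all tested genes rose), with the TAA mice shared. The 31 rises and the 26 falls include Itga11, Mmp8 and Mmp13. Their means were under 0.1 scaled FPKM in both the control and the recovery group, and they passed the filter through the TAA group. Between recovery and control 1 was higher (1.67%, against 0.582%) and 0 lower by limma. Of 14 genes for hydroxylation of proline and lysine, 4 rose (28.6%, against 17.0%). The lysyl hydroxylase Plod2, which hydroxylates the ends of collagen chains used for cross-links, rose by 2.62 (adjusted p = 3.02e-05), and Plod1 had a log2 fold change of -0.74. Of 9 genes for folding and export, 2 rose (22.2%) and 1 fell (11.1%), shares near the 17.0% and 8.02% of all tested genes. Serpinh1, the collagen chaperone HSP47, had 1.76, 1.95 and 2.08 in the control group and 18.9, 5.13 and 27.9 in the TAA group and rose by 2.80 (adjusted p = 0.00373). Mia3 (TANGO1), which loads collagen into transport vesicles, fell by 1.26 (adjusted p = 5.16e-05), from 107, 95 and 92 to 44.4, 40.7 and 37.6. The scaling shift of 0.64 enters the size of this fall, and its value under the other scalings is not given here.

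Of 6 propeptide processing genes, 4 rose. Adamts2, which removes the amino-terminal propeptide, rose by 2.66 (adjusted p = 4.12e-05), and Bmp1, which removes the carboxyl-terminal one, had -0.95 (adjusted p = 9.43e-05), just under the fold change of 2. All but 1 of the 5 listed cross-linking genes rose, with 3.17 for the lysyl oxidase-like enzyme Loxl2 (adjusted p = 1.36e-05) and 0.85 for Loxl4, which was not a DEG. The lysyl oxidase gene Lox was not on the list. Of 7 fibril regulators, 4 rose, with 3.49 for lumican (Lum, adjusted p = 3.76e-05) and -0.46 for fibronectin (Fn1), at 339 to 404 in the control and 246 to 284 in the TAA libraries. Of 10 receptor and uptake genes, 5 rose, with 4.05 for the collagen receptor kinase Ddr1 (adjusted p = 2.97e-06) and -0.26 for the mannose receptor Mrc1. The differences of Fn1 and Mrc1 lie within the 0.64 by which the scaling shifted this comparison, so their directions depend on the scaling.

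Degradation genes and their inhibitors had the largest share of rises, 8 of 9, with Mmp8 and Mmp13 among the 8. Mmp2, a gelatinase, rose by 3.83 (adjusted p = 9.76e-05) from 0.853, 0.548 and 1.33 to 18.7, 8.91 and 15, and it fell by 2.91 in recovery (adjusted p = 8.37e-05). The membrane-bound protease Mmp14 had 0.25 in the TAA group and 0.33 in recovery against the TAA group. The scaling factors of the recovery and TAA groups differed by -0.56 on the log2 scale, so the direction of the 0.33 depends on the scaling. The pathway gene called higher in recovery than in control was Itga2, a collagen-binding integrin chain (1.58, adjusted p = 0.0472). It was at 0.0509, 0.125 and 0.107 in the control group, 0.704, 0.798 and 0.706 in the TAA group and 0.298, 0.597 and 0.582 in the recovery group, and the 3 groups did not overlap.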

How the data were processed

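Liver RNA of 9 mice was sequenced as paired-end reads. The authors mapped the reads to mm10 with HISAT2 (2.2.1) and counted them per gene with featureCounts (1.5.0-p3, versions per the submitters' processing notes), and deposited the FPKM of each mouse, not scaled further between mice. The annotation used for counting is not given in the sources used here. From these FPKM, the factors (over the 14005 genes above 0 in all libraries), the scaled FPKM and the comparisons described above were computed with limma 3.58.1 (lmFit, and eBayes with a trend) in R 4.3.3, with each fit on the 6 libraries of its groups. Low FPKM values were whole numbers of fragments in 57.4% to 68.4% of cases per library (tolerance 0.08, where 16% would be whole by chance), so no count test was made and intervals from counting were not computed. Tables and figures were made with Python 3.11.15, pandas 2.3.3, numpy 2.4.6 and matplotlib 3.10.9.

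The collagen classes, ratios, marker lists and collagen-pathway list were chosen with earlier results of these data known. Every tested chain was named, with values in all libraries for chains with a group mean of at least 1 scaled FPKM, chains lower in the TAA group and the 2 nearest each side of a fold change of 2. For each role of the pathway list the genes with the largest and smallest log2 fold change in the TAA group were named. Itga2 was named as the only gene of that list called between recovery and control. Same-numbered mice were not treated as pairs. Pearson's r of log2 values was 0.975 to 0.987 within groups. On simulated libraries for the TAA and control groups (14092 genes, of which 200 were changed), 37.3% of genes changed by 1 on the log2 scale were recovered, 95.5% of those changed by 2 and 100% of those changed by 4, with 3 false calls. A change of 1 is the fold change of 2 asked of a call, which limits its recovery. The changed genes were drawn from levels well above the filter, so these rates do not cover the low chains. Alternatives to the pseudocount, filter, scaling, fit, test and set of mice were tried. Protein sequences were not used here. P values by limma weigh a group difference against the spread between the mice of this experiment.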

Additional observations from a re-analysis of the deposited data

How the results depend on the processing

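Of the counts of DEGs among the 33 tested chains, the 24 rises and 2 falls in the TAA group against control and the 22 falls and 2 rises in recovery against the TAA group moved most with the pseudocount, the filter, the test and, for the small counts, the scaling. With a pseudocount of 1 they were 14 rises and 1 fall in the TAA group and 14 falls and 1 rise in recovery. With a mean FPKM of at least 1 there were 15 rises in the TAA group and 14 falls in recovery, since only 19 chains were tested. When treat in limma tested for more than a 2-fold difference, rises numbered 14 and falls 0 in the TAA group, and falls 13 and rises 0 in recovery. With FPKM as deposited, or with an equal total FPKM, the falls in the TAA group (Col18a1 and Col5a3) and the rises in recovery were 0. Leaving out 1 mouse gave 21 to 24 rises and 1 to 2 falls in the TAA group and 20 to 23 falls in recovery. Quantile normalization gave 17 rises in the TAA group, without those of Col12a1, Col28a1, Col4a3, Col4a4, Col6a6, Col7a1 and Col8a2. In recovery against the TAA group it gave 18 falls. Between recovery and control, 0 chains were called under every alternative.

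Of all DEGs in the TAA group, 67.9% were higher. This share was 91.2% with FPKM as deposited, 94.3% with an equal total FPKM, 53.1% with quantile normalization, 53.4% with a mean FPKM of at least 1 and 50% with a pseudocount of 1. The replicate block changed no count of called chains (24 rises and 2 falls in the TAA group, 22 falls and 2 rises in recovery). Deviations of same-numbered mice correlated at -0.070 to 0.125, so the numbers were not taken as pairs. Over single chains and alternatives, 88 calls were lost and 17 gained, and no called direction turned. At the depth of these libraries, chains under 0.1 scaled FPKM rest on few fragments, and differences between them were not resolved. The causes of these shifts were not tested.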
